A study of Mus musculus with 6 samples.

Results

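The 42 genes described here encode the proteins that copy DNA: the Mcm2 to Mcm7 helicase, the origin recognition complex and the factors that load the helicase, the sliding clamp and its loader, the single-strand binding protein, the replicative polymerases and primase, the enzymes that join lagging-strand fragments, and enzymes that supply deoxynucleotides. The genes were taken from a list, and their members are the 94 probe sets whose only annotated gene symbol is on that list, out of 34945 probe sets of 18193 genes that were tested. Each probe set reads a transcript through several short probes. The paper names the arrays as 3′ expression arrays, and the place of each probe set along its transcript was not examined here. Of the 42 genes, 11 had 1 probe set, 15 had 2, 12 had 3, 3 had 4 and 1 had 5. All 42 genes had at least 1 probe set, and none was removed by a filter on low values.

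RNA came from secondary follicles of young mice (9 weeks) and old mice (32 weeks), with 3 samples at each age. All mice were specific pathogen-free C57BL/6J females, and the labels name no treatment or altered gene. The follicles were freed from the ovary with needles and picked for an intact basal membrane and a central oocyte, so each sample held the oocyte, its granulosa cells and whatever cells adhered to the follicle. The sources used here do not give how many mice stood behind a sample, and every p-value therefore rests on the spread among the 6 samples, which may be technical.

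In a dividing cell, the origin recognition complex marks the sites where copying starts, and Cdc6 and Cdt1 load the Mcm2 to Mcm7 ring there before S phase. Cdc45, the GINS complex and Mcm10 then turn the ring into an active helicase, and the clamp Pcna, placed on DNA by the Rfc complex, holds the polymerases on the template. In a secondary follicle the granulosa cells are the dividing cells, whereas the oocyte is arrested in meiosis and copies no nuclear DNA. Transcription of many of these genes is driven by E2F factors with their Dp partners and held back by the RB family of proteins.

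Since E2F sites are the best known element that replication genes share, the promoters of genes that fell (Orc1, Rfc3 and Pcna) and of Mcm6, which did not pass the test in either direction, are shown as RefSeq gives them for GRCm38.p6. Orc1 and Rfc3 were picked because they hold an E2F core, Pcna was picked by name, and Mcm6 holds the most cores of the matched members. Pola1, which also fell and holds a core, is not shown. The windows therefore do not give the share of genes with a core. Each stretch is the last 130 bases before the annotated start, 5′ to 3′ on the strand of the gene, and the capitals mark E2F cores (TTTCCCGC, TTTGGCGC, TTTCGCGC or TTTGCCGC on either strand) and CCAAT boxes (CCAAT on either strand).
Orc1 (chr4:108579324-108579453, plus strand): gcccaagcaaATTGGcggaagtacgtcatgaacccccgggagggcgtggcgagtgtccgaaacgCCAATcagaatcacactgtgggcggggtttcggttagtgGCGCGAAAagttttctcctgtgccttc
Rfc3 (chr5:151651209-151651338, minus strand): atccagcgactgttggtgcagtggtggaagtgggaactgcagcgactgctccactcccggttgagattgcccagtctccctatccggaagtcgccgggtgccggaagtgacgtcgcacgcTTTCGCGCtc
Pcna (chr2:132253181-132253310, minus strand): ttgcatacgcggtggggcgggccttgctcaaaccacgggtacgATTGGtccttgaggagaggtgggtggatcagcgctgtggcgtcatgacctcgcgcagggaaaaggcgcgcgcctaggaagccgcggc
Mcm6 (chr1:128359706-128359835, minus strand): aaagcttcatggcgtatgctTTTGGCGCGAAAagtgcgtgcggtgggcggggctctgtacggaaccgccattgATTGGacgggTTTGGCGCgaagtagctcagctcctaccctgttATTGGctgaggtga

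The E2F core began 27 bases before the start of Orc1 and 10 bases before that of Rfc3, and the window of Pcna held no such core. Mcm6 held 3 cores, the first of which overlaps the second and begins 110 bases before the start. Promoters of 35 of the 42 genes were matched by symbol. Over the 250 bases before the start, an E2F core was present in 8 of the 35 genes (22.9%) and in 583 of all 27025 genes of the promoter table (2.16%). A CCAAT box was present in 22 of the 35 genes (62.9%) and in 37.5% of all genes. For both motifs, all genes means every gene of the promoter table and not only the 18193 tested on the arrays, so the sets differ in kind. An E2F core stood before 3 of the 7 genes that were lower in the old samples, before 1 of the 4 that were higher and before 4 of the 24 matched genes that did not pass the test. A CCAAT box stood before 7 of the 7 lower genes, 2 of the 4 higher and 13 of the 24 others. These matches describe letters in the sequence and were not tested against the expression values.

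Each gene was first read at its brightest probe set, the one whose mean log2 value over all samples was highest. There, none of the 42 replication genes reached a fold of 2 between old and young mouse ovarian secondary follicles. When a call asked limma for an adjusted p of at most 0.05 together with a 2-fold change or more, 0 genes were called higher and 0 lower, where 0.638% of all genes were called higher and 0.126% lower. SAM, a permutation-based method for arrays, also called 0 in each direction. At an unadjusted p under 0.05 limma counted 8 of the 42 genes higher and 10 lower, beside 3072 higher and 3713 lower of all 18193. When the adjusted p was taken whatever the fold, 4 genes were higher in the old samples (Mcm7, Rfc4, Pold1 and Rrm2) and 7 were lower (Orc1, Orc4, Orc6, Pcna, Rfc3, Pola1 and Prim1), while 31 did not pass. Those are 9.52% and 16.7% of the members, beside 10.1% higher and 13.3% lower among all genes. The median change of the 42 genes was -0.01 on the log2 scale, and that of all genes was -0.00. The changes ranged from -0.80 to 0.40. Old and young samples did not overlap in 12 genes that were higher and 11 that were lower, and overlapped in 19, beside 18.9% and 23.7% of all genes without overlap. In bulk RNA of this kind, which also holds the RNA of the oocyte, fewer dividing cells and less RNA per cell cannot be told apart.

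The split between higher and lower genes depended on the scaling of the arrays. When the deposited values were normalized again by quantiles or by cyclic loess, 8 genes were higher (Mcm7, Rfc4, Pold1, Pold2, Fen1, Lig1, Rrm1 and Rrm2) and 3 were lower (Orc1, Pcna and Rfc3), with a median of 0.06 or 0.05 on the log2 scale. Pcna, Rfc3, Orc1, Pold1 and Rrm2 passed the test in every fit that left out 1 array, whereas Orc4 and Prim1 failed it whichever array was left out. Orc6 failed in all such fits but the one without old sample 2, Pola1 in all but the one without young sample 3, Mcm7 in all but the one without young sample 1, and Rfc4 only without young sample 2. The number of lower genes then lay between 3 and 4, and the number of higher genes between 2 and 5, with 2 in the fit without young sample 2.

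Over all 94 probe sets, dimmer ones included, the limma calls at a fold of at least 2 were 0 higher and 2 lower, beside 0.466% higher and 0.552% lower among all probe sets. The called probe sets were 1448127_at of Rrm1 and 1454011_a_at of Rpa2, and each was a dimmer probe set of its gene. By the manufacturer's naming, an ending of _s_at or _x_at marks probe sets with probes that also match, or resemble, other transcripts, and these are called shared here. At the adjusted p alone, 10 probe sets were higher and 19 were lower, which is 10.6% and 20.2% of 94, beside 8.95% and 13.8% of all probe sets. Of these, 7 of the higher and 14 of the lower probe sets were dimmer members of their gene.

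**Figure D1:**
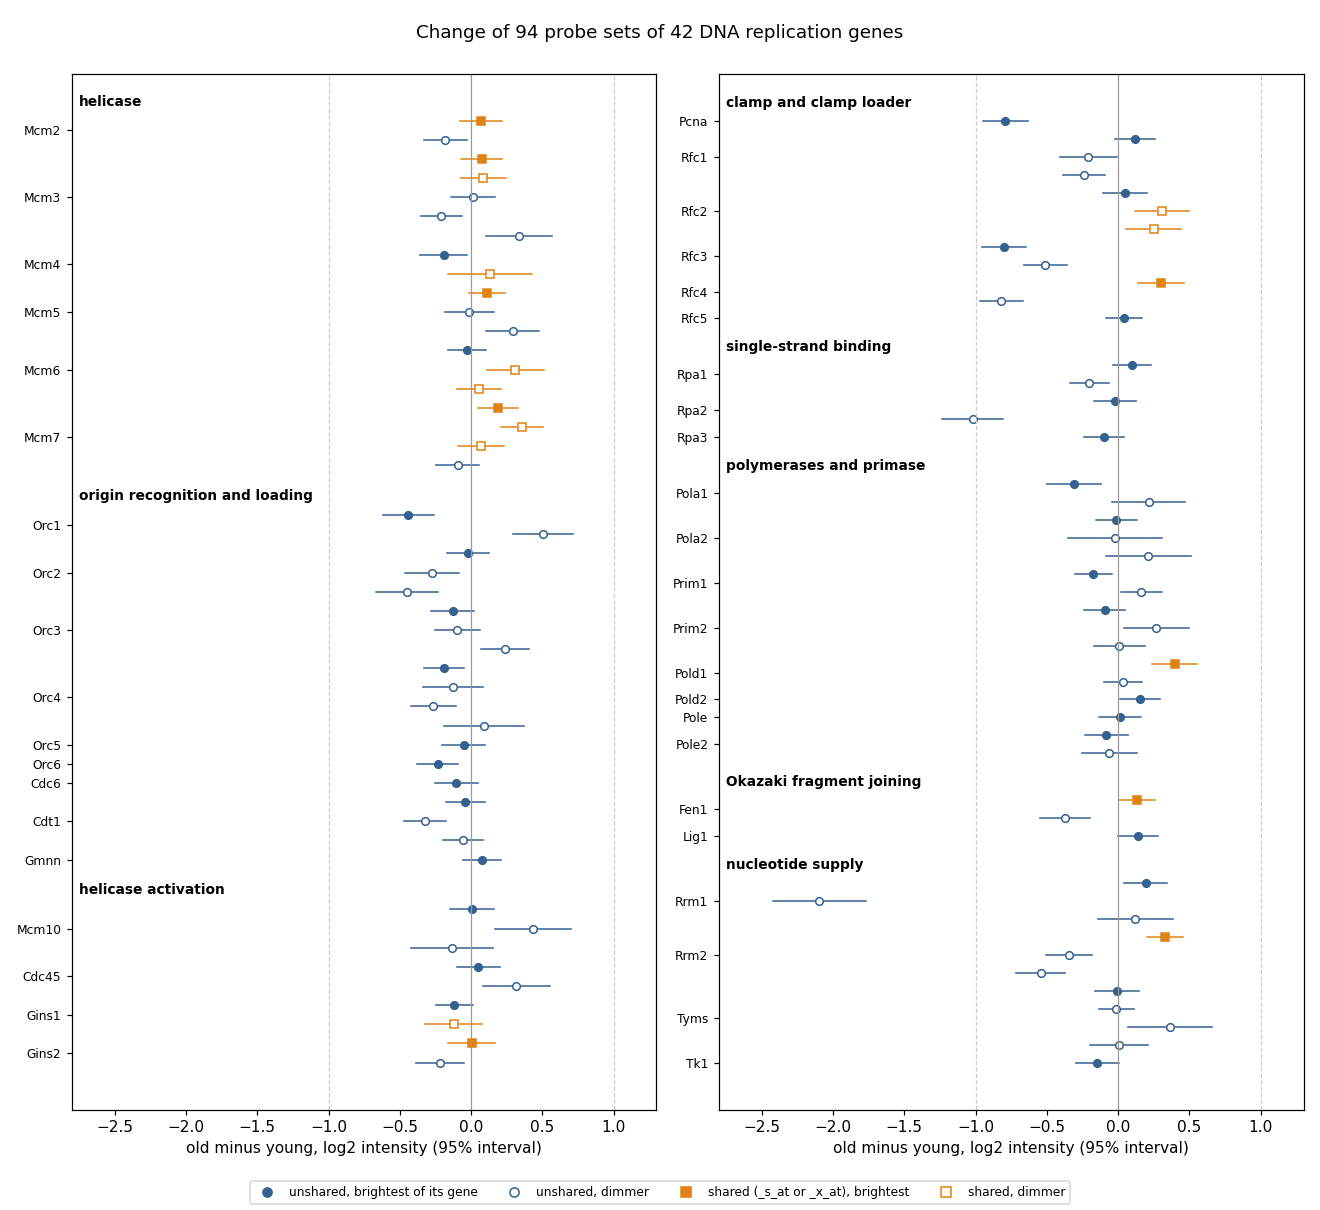
Change of each of the 94 probe sets (old minus young, log2 intensity, horizontal axis) with its 95% interval, grouped by role and gene. Filled symbols are the brightest probe set of a gene, open symbols the dimmer ones, squares the probe sets whose names end in _s_at or _x_at, and dashed lines a fold of 2. The Rrm1 probe set at -2.10 and the Rpa2 probe set at -1.02 lie outside the dashed lines.

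Mcm2 to Mcm7 form the ring that unwinds DNA ahead of the polymerases. At their brightest probe sets, the log2 differences between old and young lay between -0.19 for Mcm4 and 0.19 for Mcm7, and Mcm7 alone passed the test among these 6 genes. Mcm7 read 11.41, 11.31 and 11.31 in young and 11.53, 11.56 and 11.50 in old samples (log2 intensity). All old samples were above all young samples, by 0.19 ± 0.05 (SE, limma, adjusted p = 0.0444 over genes). A dimmer Mcm7 probe set, 1439269_x_at, rose by 0.36 (limma, adjusted p = 0.00641 over probe sets). Probe set 1416030_a_at, the only one of Mcm7 whose name does not end in _s_at or _x_at, had a log2 difference between the ages of -0.10 (adjusted p = 0.329). That last probe set moved down against the brightest by 0.28 on the log2 scale (limma, adjusted p = 0.0477).

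The other helicase subunits did not pass the test at their brightest probe sets. Their log2 differences, old minus young, were 0.07 for Mcm2, 0.07 for Mcm3, 0.11 for Mcm5 and -0.03 for Mcm6, with 95% intervals of -0.06 to 0.20, -0.06 to 0.20, -0.00 to 0.22 and -0.15 to 0.09. Mcm4, at 10.13, 10.08 and 9.98 in young and 9.84, 9.96 and 9.81 in old samples, was lower without overlap and did not pass the test (-0.19, limma, adjusted p = 0.0750). Among the dimmer probe sets of these genes, 1420029_at of Mcm3 (0.33), 1459658_at of Mcm5 (0.29) and 1438852_x_at of Mcm6 (0.31) rose, and 1426653_at of Mcm3 fell by 0.21, each at an adjusted p between 0.0350 and 0.0479 over probe sets. Each of these calls failed in all fits that left out 1 array but one, namely the fit without young sample 3 for 1420029_at, young sample 2 for 1459658_at, old sample 2 for 1438852_x_at and young sample 1 for 1426653_at. The rise of 1420029_at also failed after quantile normalization and after cyclic loess.

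Orc1 to Orc6 make up the origin recognition complex. Of these 6 genes 3 fell at the brightest probe set, beside 13.3% lower among all genes. Orc1, the subunit whose level is known to follow the cell cycle, read 7.11, 7.26 and 7.18 in young and 6.63, 6.74 and 6.85 in old samples. The groups were apart, and Orc1 was lower by a log2 change of -0.44 ± 0.07 (SE, limma, adjusted p = 0.00605). The dimmer Orc1 probe set, 1443172_at, went the other way, from 5.40, 5.55 and 5.72 to 6.15, 6.00 and 6.03. It rose by 0.50 ± 0.09 (limma, adjusted p = 0.00729 over probe sets), and the changes of the pair differed by 0.94 (95% interval 0.67 to 1.22, limma, adjusted p = 0.00139). With the mean of its probe sets taken in place of the brightest, the log2 difference of Orc1 was 0.03, so the direction of Orc1 depended on the probe set.

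Orc6 had a single probe set, at 8.79, 8.75 and 8.77 in young and 8.50, 8.62 and 8.48 in old samples. It was lower in every old sample, with a change of -0.24 ± 0.06 (SE, limma, adjusted p = 0.0255). Orc4 went from 8.72, 8.62 and 8.60 to 8.46, 8.45 and 8.44. It was also lower in every old sample (-0.19 ± 0.05, limma, adjusted p = 0.0416), and its dimmer probe set 1423337_at fell by 0.27 (adjusted p = 0.0285 over probe sets). The fall of that dimmer probe set failed the test after quantile normalization, after cyclic loess, and without young sample 2, young sample 3, old sample 1 or old sample 2. At the brightest probe sets, the falls of Orc4 and Orc6 also failed with SAM, after quantile normalization and after cyclic loess. Orc2 had a log2 difference of -0.02 at its brightest probe set (95% interval -0.16 to 0.11), where young and old samples overlapped. Its dimmer probe set 1418227_at read 6.92, 6.63 and 6.62 in young and 6.19, 6.32 and 6.30 in old samples. That probe set fell by 0.45 ± 0.09 (limma, adjusted p = 0.0132 over probe sets) and differed from the brightest by -0.43 (adjusted p = 0.0307). The remaining Orc2 probe set, 1418226_at, fell by 0.27 (adjusted p = 0.0467 over probe sets), which failed the test whichever array was left out. Orc3 was at -0.13 and Orc5 at -0.05, neither past the test.

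Cdc6 and Cdt1 carry the helicase to the origin, and geminin (Gmnn) blocks Cdt1 once S phase has begun. The log2 differences at their brightest probe sets were -0.11 for Cdc6, -0.04 for Cdt1 and 0.08 for Gmnn, and none passed the test. A dimmer Cdt1 probe set, 1424144_at, fell by 0.33 (limma, adjusted p = 0.00961 over probe sets), yet its change was not shown to differ from that of the brightest (-0.28, limma, adjusted p = 0.0525). Of the 4 genes that activate the loaded helicase, Mcm10, Cdc45, Gins1 and Gins2, none passed the test, and their log2 differences ran from -0.12 to 0.05. Gins1 was lower in every old sample (8.90, 8.89 and 8.87 against 8.77, 8.81 and 8.73). The dim probe set 1433407_at of Mcm10 rose by 0.43 (limma, adjusted p = 0.0321 over probe sets) and differed from the brightest, which was at 0.01 (adjusted p = 0.0325). That rise did not pass without young sample 1 (0.32), without old sample 2 (0.38) or without old sample 3 (0.42).

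The sliding clamp and a subunit of its loader gave the largest falls among the 42 brightest probe sets. Pcna, the ring that tethers polymerases to DNA, had a single probe set. It read 11.97, 11.82 and 11.79 in young and 11.10, 11.05 and 11.05 in old samples, which is a gap wider than the spread within either age. Pcna was lower 1.73-fold, a log2 change of -0.79 ± 0.06 (SE, 95% interval -0.94 to -0.64, limma, adjusted p = 0.000325). Rfc3, a small subunit of the clamp loader, read 8.01, 8.06 and 8.0 in young and 7.14, 7.23 and 7.31 in old samples. It was lower 1.74-fold (-0.80 ± 0.06, limma, adjusted p = 0.000269), and its dimmer probe set 1423700_at fell as well, by 0.51 ± 0.07 (adjusted p = 0.00174 over probe sets). Pcna and Rfc3 kept their direction and passed the test in all 16 alternative settings, with changes between -0.83 and -0.74 for Pcna and between -0.84 and -0.66 for Rfc3. Not all of these settings could move the change. Other choices of probe set leave Pcna as it was, and Rfc3 has no shared probe set to leave out. SAM, the filter on dim values and other priors alter only the test. Pcna and Rfc3 thus had fewer than 16 separate checks. Pcna and Rfc3 were also the 2 genes called at a fold of at least 1.5, for which no share over all genes was taken.

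Rfc4, another small subunit of the loader, had probe sets that moved in opposite directions. The brightest, 1438161_s_at, read 7.86, 7.85 and 7.89 in young and 8.13, 8.28 and 8.09 in old samples. It rose without overlap by 0.30 ± 0.06 (SE, limma, adjusted p = 0.0155). The other, 1424321_at, read 8.35, 8.20 and 8.23 in young and 7.46, 7.47 and 7.39 in old samples. It fell 1.77-fold (-0.82 ± 0.07, limma, adjusted p = 0.000225 over probe sets), and the changes differed by -1.12 (95% interval -1.33 to -0.91, adjusted p = 0.000219). In the young samples 1424321_at was the brighter of the pair on every array and in the old samples the dimmer, so the mean over all arrays decided which of them stood for the gene. With probe sets ending in _s_at or _x_at left out, Rfc4 was lower by the -0.82 of 1424321_at, and with the mean of both the log2 difference was -0.26. Rfc1, the large subunit (0.12), Rfc2 (0.05) and Rfc5 (0.04) did not pass the test at the brightest probe set, while 1451920_a_at of Rfc1 fell by 0.24 and 1457669_x_at of Rfc2 rose by 0.31 (limma, adjusted p = 0.0336 and 0.0333 over probe sets). The fall of 1451920_a_at did not pass after quantile normalization (adjusted p = 0.103), after cyclic loess (adjusted p = 0.0822) or in any fit without 1 array except the one without young sample 3, and the rise of 1457669_x_at failed in all such fits except the one without old sample 1.

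**Figure D2:**
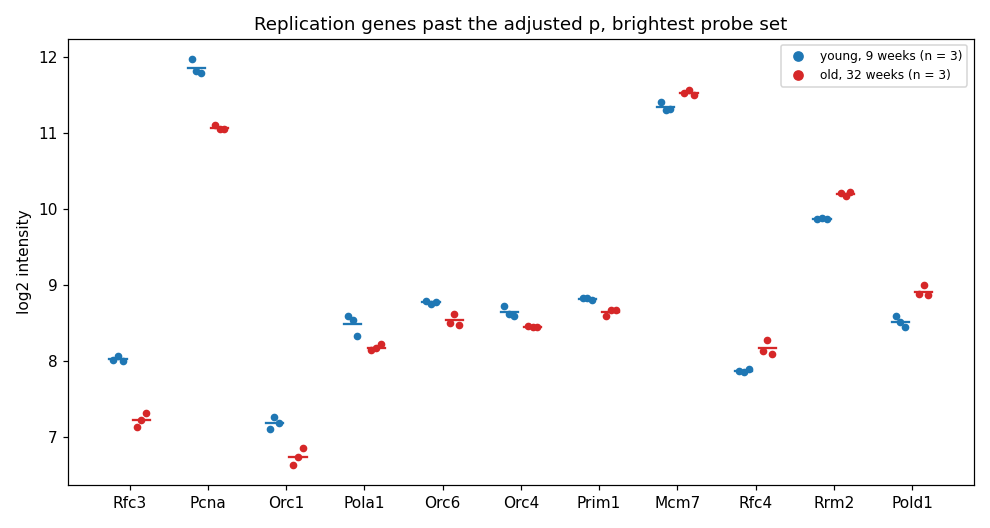
Log2 intensity (vertical axis) of the 11 replication genes past the adjusted p at the brightest probe set, where points are arrays and lines are means of 3 arrays for young (blue) and old (red) samples. No gene has overlapping groups, and the differences between the means of Rfc3 and Pcna, near 0.8, are the largest.

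Rpa1, Rpa2 and Rpa3 form the complex that coats single-stranded DNA at the fork. None passed the test at the brightest probe set, where the log2 differences were 0.10, -0.02 and -0.10. For Rpa2, the brightest probe set read 8.78, 8.75 and 8.77 in young and 8.69, 8.84 and 8.70 in old samples, with overlap. The dimmer Rpa2 probe set 1454011_a_at read 6.68, 6.67 and 6.61 in young and 5.50, 5.83 and 5.58 in old samples, without overlap. It was called, at a 2.03-fold fall (-1.02 ± 0.09, limma, adjusted p = 0.000366 over probe sets), and differed from the brightest by -1.0 (95% interval -1.20 to -0.79, adjusted p = 0.000311). The change lay just past the fold of 2 and just short of it after quantile normalization (-0.97), after cyclic loess (-0.97), without old sample 1 (-0.95) and without old sample 3 (-0.99). A dimmer Rpa1 probe set, 1423293_at, fell by 0.20 and differed from the brightest by -0.30 (limma, adjusted p = 0.0424 and 0.0401). That fall did not pass after quantile normalization (adjusted p = 0.120), after cyclic loess (adjusted p = 0.113) or whichever array was left out (adjusted p from 0.0590 to 0.137).

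Polymerase alpha and primase start each new strand, and polymerases delta and epsilon extend it. Pola1, the catalytic subunit of polymerase alpha, read 8.59, 8.53 and 8.33 in young and 8.14, 8.16 and 8.22 in old samples. It was lower without overlap (-0.31 ± 0.08, SE, limma, adjusted p = 0.0275), and its dim probe set 1459319_at, between 2.84 and 3.37 on all arrays, had a log2 difference of 0.21 (adjusted p = 0.214). The pair differed by 0.52 (limma, adjusted p = 0.0236). Prim1, the catalytic subunit of primase, was lower at its brightest probe set by a log2 change of -0.17 (limma, adjusted p = 0.0455). Its other probe set, 1449061_a_at, was at 0.16 (adjusted p = 0.105 over probe sets), and the pair differed by 0.34 (adjusted p = 0.0245).

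Pold1, the catalytic subunit of polymerase delta, read 8.59, 8.51 and 8.44 in young and 8.88, 8.99 and 8.86 in old samples at 1456055_x_at, its brightest probe set. This was the highest change among the 42 genes at the brightest probe set, 0.40 ± 0.06 (SE, limma, adjusted p = 0.00503), without overlap. The dimmer 1448187_at read 7.64, 7.55 and 7.61 in young and 7.65, 7.61 and 7.63 in old samples, with overlap. Its log2 difference of 0.03 was lower than that of the brightest by -0.36 (95% interval -0.57 to -0.16, limma, adjusted p = 0.0223). Pola2, Prim2, Pold2, Pole and Pole2 did not pass the test, with log2 differences between -0.10 and 0.15.

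Fen1 trims the flaps of Okazaki fragments and Lig1 seals the nicks between them. Fen1 at 1436454_x_at read 9.74, 9.74 and 9.76 in young and 9.87, 9.90 and 9.86 in old samples, apart but not past the test (0.13, limma, adjusted p = 0.0919). At 1421731_a_at it went from 8.52, 8.48 and 8.36 to 8.02, 8.19 and 8.01. This fall of 0.37 ± 0.08 passed the test (limma, adjusted p = 0.0114 over probe sets), and the pair differed by -0.50 (95% interval -0.72 to -0.29, adjusted p = 0.00663). Lig1, with a single probe set, had a log2 difference of 0.14 (95% interval 0.01 to 0.27) and did not pass.

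Rrm1 and Rrm2 are the large and small subunits of ribonucleotide reductase, which makes deoxynucleotides, and both had probe sets that disagreed. The brightest Rrm1 probe set, 1415878_at, read 9.60, 9.45 and 9.49 in young and 9.71, 9.74 and 9.67 in old samples, without overlap (0.19 ± 0.06, limma, adjusted p = 0.0547). The dimmer 1448127_at read 6.68, 6.39 and 6.23 in young and 4.10, 4.46 and 4.46 in old samples. All young values of that probe set lay above the medians of the arrays (4.93 to 4.95) and all old values below them. Its 4.27-fold fall (-2.10 ± 0.14, limma, adjusted p = 0.0001 over probe sets) was the largest of the 94 probe sets, and the changes differed by -2.29 (95% interval -2.59 to -1.99, adjusted p = 4.99e-05). The remaining Rrm1 probe set, 1440073_at, read between 1.99 and 2.45 and its groups overlapped. The fall of 1448127_at passed the test at a fold of 2 in all 14 alternative settings run on probe sets, with changes between -2.20 and -1.97. Leaving out shared probe sets, the filter on dim values and other priors could not move that change from -2.10.

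Rrm2, whose transcript is known to peak in S phase, rose at its brightest probe set and fell at the dimmer ones. The brightest, 1434437_x_at, read 9.87, 9.88 and 9.87 in young and 10.21, 10.17 and 10.22 in old samples (0.33 ± 0.05, limma, adjusted p = 0.00391). Probe set 1448226_at read 8.10, 8.17 and 7.99 against 7.71, 7.71 and 7.80, and fell by 0.34 ± 0.07 (adjusted p = 0.0113 over probe sets). Probe set 1416120_at read 7.04, 6.98 and 6.84 against 6.39, 6.49 and 6.36, and fell by 0.54 ± 0.07 (adjusted p = 0.00221 over probe sets). All 3 probe sets had groups apart, and the dimmer ones differed from the brightest by -0.67 and -0.87 (limma, adjusted p = 0.00159 and 0.000749). With the mean of the probe sets Rrm2 was at -0.19, and with _s_at and _x_at probe sets left out at -0.34.

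Tyms makes thymidylate and Tk1 salvages thymidine, and neither passed the test. Tk1 had a log2 difference of -0.15 (95% interval -0.29 to -0.00). The brightest Tyms probe set read between 4.59 and 4.75, below the median of every array, with a log2 difference of -0.01.

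**Figure D3:**
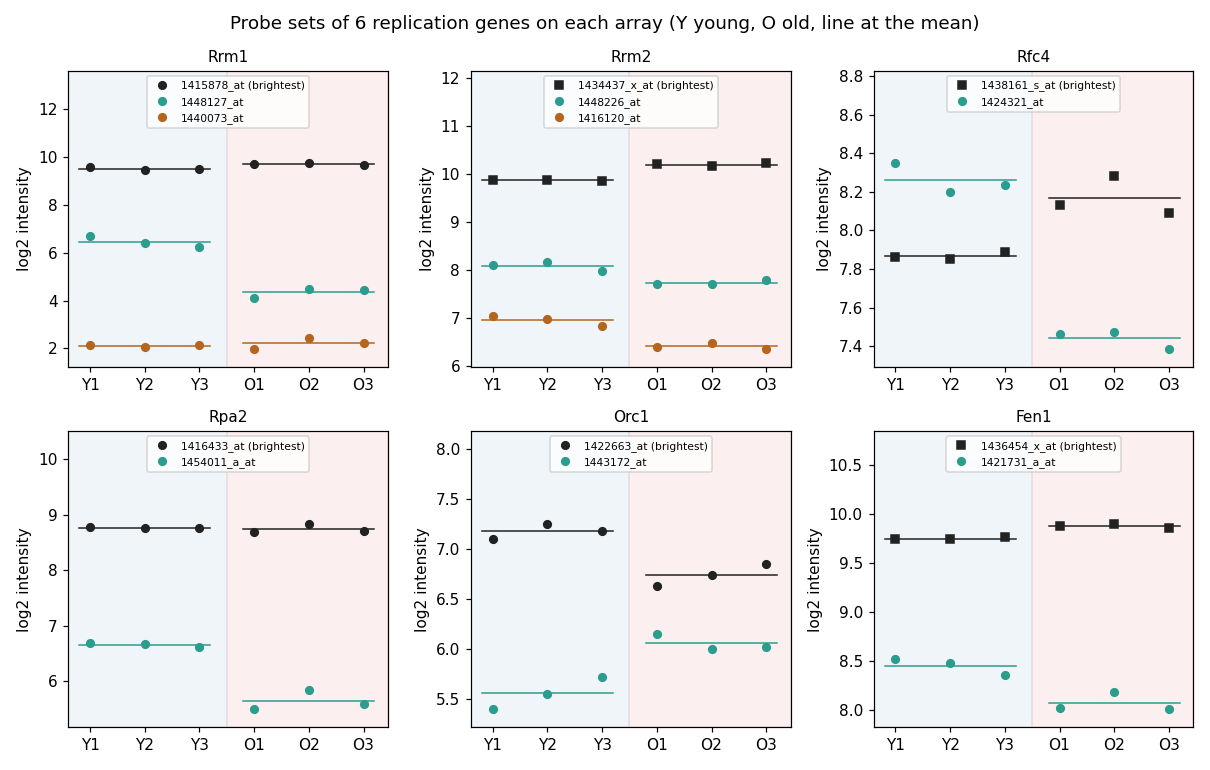
Log2 intensity (vertical axis) of each probe set of Rrm1, Rrm2, Rfc4, Rpa2, Orc1 and Fen1 on each array (horizontal axis, Y young and O old, blue and red background), where lines are means of 3 arrays. Squares are probe sets ending in _s_at or _x_at. In Rfc4 the probe sets exchange order between the ages, and in Rrm1 the fall of -2.10 stands beside a brightest probe set at 0.19.

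Differences between probe sets of a gene were tested directly, on the dimmer minus the brightest value of each array. Of 52 such pairs in 31 replication genes, the dimmer probe set moved up against the brightest in 5 and down in 11 (limma, adjusted p of at most 0.05), and these 16 pairs lay in 15 genes, which include Orc3 and Rfc1 beside those whose pairs are given above. Those are 9.62% and 21.2% of the pairs, beside 10.6% up and 13.6% down over all pairs of all genes. Such a pair lay in 15 of the 31 replication genes, beside 3085 of all 9010 genes with several probe sets. In 4 genes, Mcm3, Orc1, Rfc4 and Rrm2, there were probe sets that passed the test in opposite directions, which was not counted over all genes. Those of Mcm3 were both dimmer ones that read between 4.44 and 5.07, around the medians of the arrays (4.93 to 4.95). Both probe sets of Rfc3 fell.

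The changes were also counted by kind of probe set. Among the 18 shared replication probe sets, 6 were higher and 0 were lower at the adjusted p, with a median change of 0.13. At an unadjusted p under 0.05, limma counted 9 of these 18 higher and 0 lower, beside 819 and 568 of all 3869 shared probe sets. At the adjusted p, 13.0% of all 3869 shared probe sets were higher and 9.61% lower, with a median of 0.03. Of all _x_at probe sets 15.5% were higher and 4.27% lower (median 0.06), against 10.2% and 15.6% of _s_at ones (median -0.01). Of the replication probe sets, 5 of 12 ending in _x_at and 1 of 6 ending in _s_at were higher. Among the 76 unshared replication probe sets, 4 were higher and 19 lower, with a median of -0.06, beside 8.45% and 14.4% of all 31076 unshared probe sets and a median of -0.01. Of the replication ones, 4 of 13 ending in _a_at and 15 of 63 ending in _at were lower, beside 21.8% and 13.2% of all such probe sets.

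Probe sets from these counts were also compared within genes, which is not a separate set of data. In the 13 replication genes with probe sets of both kinds, the mean change of the shared ones was above that of the unshared ones in 11 (84.6%), all but Mcm5 and Gins1, with a median difference of 0.25. Over all 2774 genes with both kinds, it was above in 1814 (65.4%), with a median difference of 0.08. A shared probe set was the brightest in 9 of the 42 genes (21.4%), against 8.81% of all genes. The 4 genes that were higher at the brightest probe set, Mcm7, Rfc4, Pold1 and Rrm2, all had a shared probe set there, and none of the 7 lower genes did. Among all genes, 14.8% of the 1835 higher and 6.48% of the 2422 lower had a shared brightest probe set. With shared probe sets left out, 0 replication genes were higher and 10 lower at the adjusted p in limma, and 0 and 8 in SAM. At an unadjusted p under 0.05 limma then counted 3 and 14, for which no count over all genes was taken. The 10 lower genes are 23.8% of the members, beside 9.34% higher and 14.6% lower among all 17903 genes with an unshared probe set. That setting changes the probe set of 9 replication genes. Which other transcripts the shared probes match was not examined here.

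**Figure D4:**
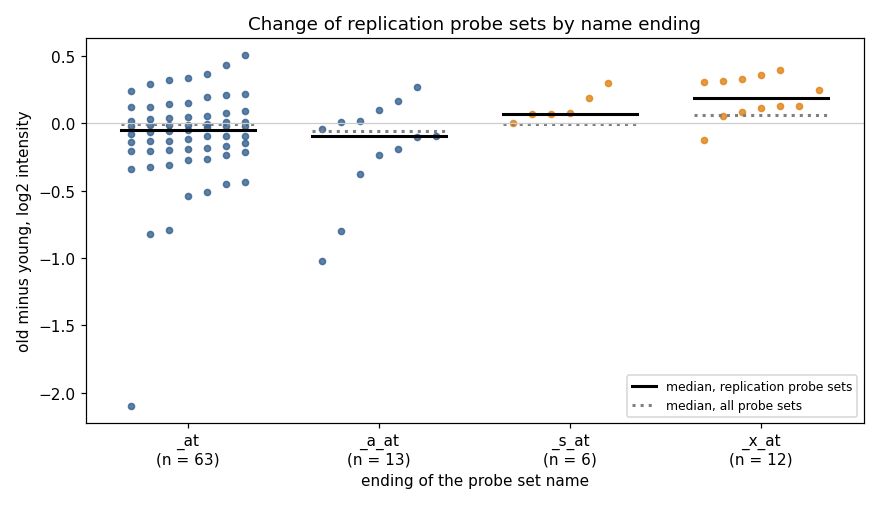
Change (old minus young, log2 intensity, vertical axis) of the 94 replication probe sets by the ending of their name (horizontal axis), with 1 point per probe set, a solid line at their median and a dotted line at the median of all probe sets with that ending. Points for _s_at and _x_at (orange) lie between -0.12 and 0.40, while those for _at and _a_at (blue) reach down to -2.10.

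Measures of RNA, of labelling and of other cells moved with age in the same samples. On the control probe sets, the 3′ minus the 5′ log2 value went from 0.47 to 1.51 for Gapdh and from 1.48 to 2.53 for beta-actin, with no overlap (exact two-sided permutation test, p = 0.1 each, the smallest that 3 against 3 samples allow). The poly-A controls, RNAs that are added to a sample before labelling, moved in the same direction, from 5.0 to 5.85 for Dap, from 1.46 to 2.08 for Lys and from 2.29 to 3.68 for Phe without overlap (p = 0.1 each in the same exact test), and for Thr from 4.55 to 4.70 with overlap (exact p = 0.5). Since added RNA shifted along with age, a difference in labelling and an effect of age cannot be told apart on these arrays. The sources used here do not place the probe sets of a replication gene along its transcript, and the part of this shift in the differences between probe sets was not tested. The granulosa cell markers were present, with the young samples at 12.82 and the old at 12.80 for Inha, and of the 11 read here, out of 12 listed, 1 was higher and 2 lower. All marker counts here are at the adjusted p, beside the 10.1% higher and 13.3% lower among all genes. Their summed intensity was 29798 to 30069 in the young and 29143 to 30001 in the old samples. Of 12 oocyte markers 0 were higher and 8 lower, with sums of 30477 to 31368 and 26526 to 27004. Of 9 theca and stroma markers 6 were higher and 0 lower (2898 to 3062 against 3985 to 4035), and of 10 macrophage and dendritic cell markers 5 were higher and 1 lower (294.1 to 310.3 against 497.1 to 542.2). Of 7 lymphocyte and NK cell markers 1 was higher, and of 6 endothelial markers 1 was higher and 1 lower. No marker is at 0, since RMA gives no zeros, and the part of other cells in the falls of Pcna, Rfc3 and Orc1 was not tested.

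Other genes of replication and of the cell cycle were taken from 6 lists. Of 86 such genes on the arrays, 0 were called at a fold of 2 by limma and 0 by SAM. At an unadjusted p under 0.05 limma counted 17 higher and 25 lower, beside 3072 and 3713 of all 18193 genes. At the adjusted p 13 were higher (15.1%) and 17 lower (19.8%), with a median of -0.04 on the log2 scale. The share of each list below stands beside the 10.1% higher and 13.3% lower among all genes. Counts at an unadjusted p stand beside the 3072 and 3713 of 18193.

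Among 15 other regulators of licensing and firing, 1 was higher (6.67%) and 3 lower (20.0%). Cyclin E2 (Ccne2), which drives entry into S phase, went from 7.14 to 6.55 (-0.59 ± 0.08, SE, limma, adjusted p = 0.00325), and its kinase Cdk2 from 7.96 to 7.60 (-0.36, adjusted p = 0.00746). Lrwd1, which binds the origin recognition complex, rose by 0.23 (limma, adjusted p = 0.0232). Among 22 other fork factors, 2 were higher (9.09%) and 4 lower (18.2%). Top1, which relieves twisting ahead of the fork and also in transcription, went from 11.38 to 10.89 (-0.49 ± 0.05, limma, adjusted p = 0.000985). Rnaseh2c, a subunit of the enzyme that removes ribonucleotides from DNA, rose by 0.43 (adjusted p = 0.00393), and Wdhd1, which links helicase and polymerase alpha, by 0.27 (adjusted p = 0.00764).

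Of 10 other genes of nucleotide supply, 4 were higher (40.0%) and 0 lower, and at an unadjusted p under 0.05 limma counted 1 lower. Samhd1 (0.30), which breaks down deoxynucleotides rather than making them, Umps (0.22), which makes pyrimidine nucleotides, and Dtymk (0.25), which phosphorylates thymidylate, rose (limma, adjusted p = 0.0120, 0.0227 and 0.0382). Of 7 genes that copy chromatin along with DNA, 0 were higher and 3 lower (42.9%), and at an unadjusted p under 0.05 limma counted 0 higher and 4 lower. These were the histone chaperone Asf1a (-0.36), the histone mRNA binding protein Slbp (-0.26) and the maintenance methyltransferase Dnmt1 (-0.23), at adjusted p of 0.0155, 0.0179 and 0.0296 in limma.

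Of 13 E2F and RB factors, 1 was higher (7.69%) and 4 lower (30.8%). Tfdp1, the main Dp partner of the E2F factors, read 8.78, 8.78 and 8.70 in young and 8.09, 8.08 and 8.09 in old samples. The groups were apart, with a change of -0.66 ± 0.05 (SE, limma, adjusted p = 0.000253). The RB family member Rbl2 (p130), a repressor with E2f4 and E2f5, went from 8.33 to 7.62 (-0.72 ± 0.06, adjusted p = 0.000546), and Tfdp2 from 9.24 to 9.01 (-0.22, adjusted p = 0.0204). Of 19 mitotic genes 5 were higher (26.3%) and 3 lower (15.8%). Cdc20, an activator of the anaphase-promoting complex, rose by 0.48 ± 0.05 (limma, adjusted p = 0.000903) and Mki67, a marker of dividing cells, by 0.29 (adjusted p = 0.0116), while Cdk1, the mitotic kinase, went from 10.18 to 9.81 (-0.38, adjusted p = 0.00772). The probe set of Cdc20, like those of Rnaseh2c and Lrwd1, was a shared one.

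**Figure D5:**
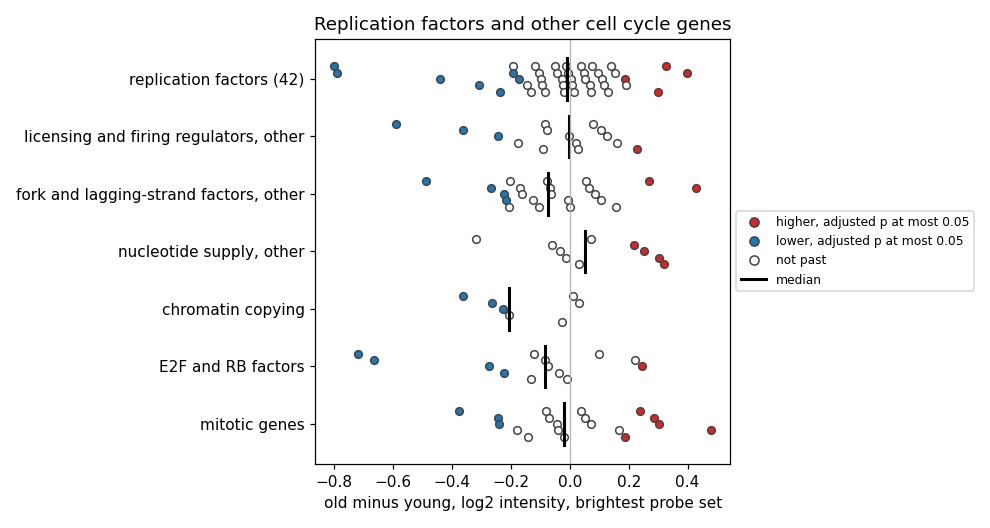
Change at the brightest probe set (old minus young, log2 intensity, horizontal axis) of the 42 replication genes and of 6 other lists (rows), with 1 point per gene, filled where the adjusted p was at most 0.05 (red higher, blue lower), open where not past, and a black line at the median of each list. No point reaches a change of 1 in either direction, and Rfc3 (-0.80), Pcna (-0.79) and Rbl2 (-0.72) lie lowest.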

How the data were processed

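The 6 samples, 3 per age and labelled as biological replicates, were hybridized to Affymetrix mouse expression arrays. For RMA, run by the authors on the scans, no version is named in the sources used here. The authors deposited 1 linear intensity per probe set, between 2.62 and 13880. RMA corrects the background, brings the arrays to a common distribution and summarizes the probes of a set, so a change is relative to the other transcripts. Here log2 of each intensity was taken, with no pseudocount. The medians of the arrays lay between 4.93 and 4.95. Over the genes at their brightest probe set, correlations lay between 0.9974 and 0.9986 within and between 0.9918 and 0.9930 across ages. The median SD within groups over the same genes was 0.089. Arrays have no sequencing depth, and precision is limited by their number.

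Probe sets with 1 gene symbol in the platform annotation (34958, of which 13 control probe sets were left out) were used, and 932 with several symbols and 9211 not listed were not. Symbols were updated through gene IDs that RefSeq holds (34741 probe sets). Old was compared with young with two-sided moderated tests in R 4.3.3 (limma 3.58.1, lmFit then eBayes) and Benjamini-Hochberg adjustment, once over 18193 genes at their brightest probe set and once over 34945 probe sets. Pairs of probe sets were compared by the same fit on their differences. The arrays that the labels number alike were not paired. SAM was rebuilt from its description, enumerating the 20 ways to assign the age labels. The alternatives were SAM, other choices of probe set, a filter on dim values, other normalizations, priors and array weights, a lower fold, a replicate block and leaving out each array. The steps were tested on simulated data. Values in full are given for members with a called probe set, the 6 highest and 6 lowest changes past the adjusted p, and up to 8 members whose probe sets differed most, and up to 3 genes per other list. The members and lists were chosen with earlier results of these data known. Promoter sequences are from RefSeq (GRCm38.p6), and no other coordinates are given. Listed genes with no probe set of their own among those used were not analysed here.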

Additional observations from a re-analysis of the deposited data

How the results depend on the processing

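The arrays' number and signal limit these values. The smallest change past the test among the 42 genes was -0.17 on the log2 scale, and background signal makes changes of dim probe sets appear smaller. The cause of the shifts below was not tested, except that fewer samples or probe sets enter some of the alternatives. Of the replication genes, the 7 lower at the adjusted p became 4 with SAM and 3 after quantile normalization, after cyclic loess and with a replicate block, and 3 to 4 when 1 array was left out. The 4 higher became 2 with the mean of all probe sets, 0 without _s_at and _x_at probe sets, 7 with a mean log2 value of at least 5 and with array weights, 8 after quantile normalization and cyclic loess, 9 with an intensity trend in the prior, and 2 to 5 without 1 array. A fold of at least 1.5 gave 2 lower genes in place of 0, and no share over all genes was taken at that fold. Single genes reversed with the mean of all probe sets (Orc1 0.031, Rfc4 -0.26 and Rrm2 -0.19) and without _s_at and _x_at probe sets (Mcm7 -0.10, Rfc4 -0.82 and Rrm2 -0.34). Of the replication probe sets, the 2 lower at a fold of 2 became 1 after quantile normalization and cyclic loess, 5 at a fold of at least 1.5, and 1 to 2 without 1 array. The 10 higher at the adjusted p became 4 without _s_at and _x_at probe sets, 17 with a mean log2 value of at least 5 and after cyclic loess, 21 with an intensity trend, and 6 to 9 without 1 array, and the 19 lower became 12 to 14 without 1 array. Of the pairs, the 5 relatively higher became 8 with a mean log2 value of at least 5, 3 after cyclic loess and 1 to 5 without 1 array. The 11 relatively lower became 5 without _s_at and _x_at probe sets and 6 to 9 without 1 array. Of the other genes, the 13 higher became 7 with SAM, 8 with a replicate block and 6 to 8 without 1 array. The 17 lower became 10 after quantile normalization, 26 with an intensity trend and 7 to 13 without 1 array, and 0 lower at a fold of 2 became 1 with the mean of all probe sets and 3 at a fold of 1.5. Samples of the same number correlated at 0.05, -0.00 and 0.04 in their deviations, so the numbers were not taken as pairs, and with the replicate block the lower probe sets went from 19 to 13 and the higher ones from 10 to 7.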
